A study of Mus musculus with 6 samples.

Results

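Cardiomyocytes are held together at the intercalated disc by desmosomes and adherens junctions. Most of the 10 genes described here encode core parts of these junctions. They are the desmosomal cadherins Dsg2 and Dsc2, the desmosomal plaque proteins Pkp2, Jup and Dsp, the classical cadherin Cdh2, and the catenins Ctnnb1, Ctnna1 and Ctnna3. The remaining gene, Tmem65, encodes a disc membrane protein associated with gap junctions. All 10 genes were chosen by name, with earlier results of these data known. The rule uses test status and mean level only to choose among several entries of a gene, and no gene here had several. They are the entries of the deposited expression table whose RefSeq transcripts belong to these symbols. All 10 were found among 23290 entries, each with 1 entry, and all 10 were tested by the authors. None passed the authors' threshold of q under 0.05 between Casz1 mutant and control hearts, and only 0.422% of the 15387 tested entries did. A count of 0 among 10 genes therefore says little about them.

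The samples were 3 mutant and 3 control mouse hearts at E10.5 of gestation, each taken from an individual embryo on a C57BL/6 background. Mutant embryos were Nkx2-5Cre/+,Casz1f/f, with floxed Casz1 alleles on both chromosomes and Cre recombinase at 1 Nkx2-5 locus, so deletion of Casz1 is limited to cells in whose lineage the Nkx2-5 locus has driven Cre. Control embryos were Nkx2-5+/+,Casz1f/+, with 1 floxed Casz1 allele, an intact Nkx2-5 pair and no Cre. Both genotypes therefore carry a floxed Casz1 allele, and they differ at Nkx2-5 as well as at Casz1. The comparison asks which genes differ in the heart when Casz1, a zinc finger transcription factor, is mutated.

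Levels are FPKM, fragments scaled by transcript length and library size, with 1 value per genotype pooled by the authors from 3 hearts. The table used here has no value per heart, so the spread between hearts and the depth per sample are unknown. Every FPKM, log2 fold change (mutant over control), p and q comes from the authors' deposited table. Dividing the size of a log2 fold change by that of its deposited test statistic gives its standard error (SE), and 95% intervals take it as normal. A gene was called at the authors' q under 0.05. In the authors' deposited table Casz1 read 4.68 FPKM in mutant and 6.61 FPKM in control hearts (log2 -0.50, q = 1.00), and Nkx2-5 read 82.9 FPKM in mutant and 143.0 FPKM in control hearts (log2 -0.79, q = 0.536). Neither was called. An FPKM covers the whole gene and the labels do not name the floxed exons, so the Casz1 level does not check the deletion. The heart label was checked against 16 cardiomyocyte markers, all of which were detected. The atrial light chain Myl7 alone read 7496 FPKM in mutant and 5080 FPKM in control hearts.

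In a desmosome, the outside parts of desmogleins and desmocollins bind those of the neighbouring cell, and their tails bind plakoglobin (Jup) and plakophilin, which in turn bind desmoplakin. Desmoplakin anchors the complex to intermediate filaments, made of desmin in heart muscle and of keratins in epithelia. In an adherens junction, N-cadherin (Cdh2) binds beta-catenin or plakoglobin, and an alpha-catenin links them to actin. In heart muscle both kinds of junction mix in the area composita. In the mouse embryo these proteins lie along the cell borders, and they gather into true discs mainly after birth. Variants of the desmosomal genes cause arrhythmogenic cardiomyopathy in people.

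Levels spanned a wide range in the same order in both genotypes, apart from 1 swap. Ctnnb1 stood highest, at 213 FPKM in mutant and 214 FPKM in control hearts. Ctnna1 followed with 111 FPKM in mutant and 122 FPKM in control hearts, and Cdh2 with 57.3 FPKM in mutant and 64.8 FPKM in control hearts. Below them came Dsp and Pkp2, which changed places: Dsp ranked 4 in mutant hearts, while Pkp2 ranked 4 in control hearts. Jup, Tmem65, Dsc2 and Dsg2 followed in that order in both genotypes. Ctnna3 was the lowest, at 2.79 FPKM in mutant and 3.02 FPKM in control hearts. The highest level was 76.3 times the lowest in mutant and 71.0 times in control hearts. Since no level per heart is given, it cannot be said which neighbours in this order differ beyond the spread between hearts.

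**Figure D1:**
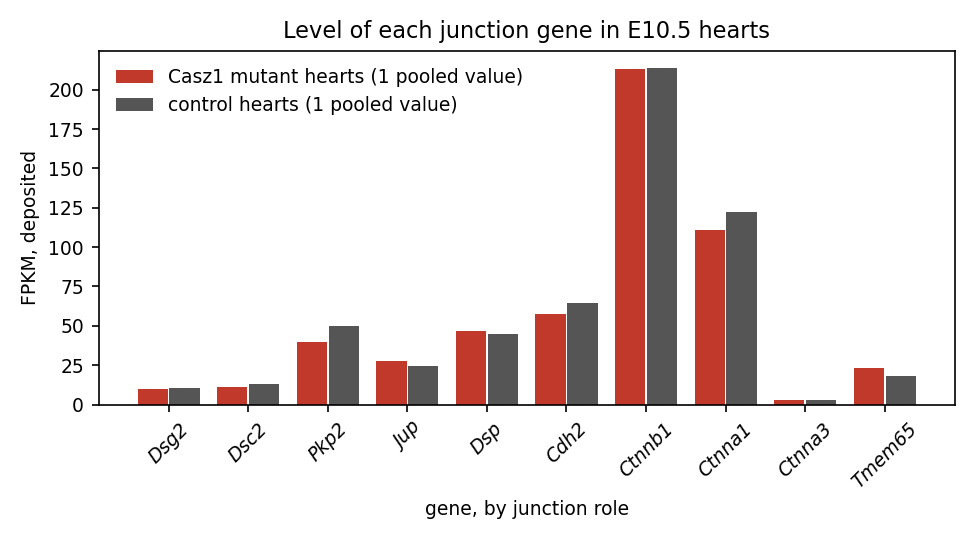
Deposited FPKM (linear axis from 0) of the 10 junction genes, ordered by role, with the mutant bar left of the control bar. Each bar is 1 value pooled by the authors from 3 hearts, so there are no error bars. Ctnnb1 stands highest at 213 and 214 FPKM in mutant and control hearts, and Ctnna3 lowest at 2.79 and 3.02 FPKM.

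Sequences upstream of the start site are shown for the members that had a promoter window. These are Ctnnb1 and Ctnna3, at both ends of this range, and the plaque genes Jup and Dsp. Their partner Pkp2 had no window. RefSeq promoter windows on GRCm38.p6 matched 4 of the 10 genes. Each line gives the 250 bases before the start site that the deposited entry begins at, read 5′ to 3′ on the gene's strand. Capitals mark the letters GGGCGG (a GC box) or CCAAT (named after its letters) on either strand. The windows are chr9:120933150-120933399 (plus strand) for Ctnnb1, chr10:63429848-63430097 (plus strand) for Ctnna3, chr11:100397791-100398040 (minus strand) for Jup and chr13:38151044-38151293 (plus strand) for Dsp.
Ctnnb1: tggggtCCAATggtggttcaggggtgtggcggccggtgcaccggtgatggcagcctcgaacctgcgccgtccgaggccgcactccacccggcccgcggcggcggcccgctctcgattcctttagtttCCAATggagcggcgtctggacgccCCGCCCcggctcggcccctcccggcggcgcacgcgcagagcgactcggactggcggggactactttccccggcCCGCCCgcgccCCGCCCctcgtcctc
Ctnna3: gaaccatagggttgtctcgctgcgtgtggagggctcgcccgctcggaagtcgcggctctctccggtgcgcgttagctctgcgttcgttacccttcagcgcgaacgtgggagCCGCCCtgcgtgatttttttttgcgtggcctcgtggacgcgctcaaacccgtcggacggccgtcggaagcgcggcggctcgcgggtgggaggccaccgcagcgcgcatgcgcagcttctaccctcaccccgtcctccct
Jup: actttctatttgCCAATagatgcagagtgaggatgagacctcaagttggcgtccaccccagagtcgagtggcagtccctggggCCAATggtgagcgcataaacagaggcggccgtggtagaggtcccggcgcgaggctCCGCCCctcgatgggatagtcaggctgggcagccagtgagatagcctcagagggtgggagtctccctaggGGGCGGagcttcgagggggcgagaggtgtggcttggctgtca
Dsp: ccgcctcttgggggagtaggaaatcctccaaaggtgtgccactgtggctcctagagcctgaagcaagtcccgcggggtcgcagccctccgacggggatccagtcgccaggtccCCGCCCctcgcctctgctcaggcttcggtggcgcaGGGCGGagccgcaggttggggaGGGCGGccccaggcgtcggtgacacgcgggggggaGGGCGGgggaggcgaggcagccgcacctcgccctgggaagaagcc
The window of Ctnnb1 held 3 GC boxes and 2 CCAAT boxes, and that of Jup held 2 of each. Dsp had 4 GC boxes, Ctnna3 had 1, and neither had a CCAAT box. No GC box shared bases with a CCAAT box. A GC box occurs in 32.7% and a CCAAT box in 33.8% of all 32851 RefSeq windows of 250 bases. The GC content was 74.8% for Ctnnb1, 67.6% for Ctnna3, 62.0% for Jup and 72.4% for Dsp, against a median of 52.4% over all windows. Searches on both strands for TATAAA (a core promoter element), AGATAA (bound by GATA factors) and AAGTG (core of sites bound by NK2 factors such as Nkx2-5) gave 0 matches in these 4 windows. Those motifs occur in 12.4%, 9.99% and 40.7% of all windows. These are matches of letters only. All 4 windows are GC-rich whether the gene is the highest or the lowest of the set.

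Across the 10 genes, 0 were called, where 0.422% of the 15387 tested entries were called. An unadjusted p under 0.05 was reached by 0 of the 10 genes and by 3.17% of tested entries, and the smallest p among the 10 was 0.220. Fold changes lay above 0 for 3 genes and below 0 for 7, and 44.4% of the 12150 expressed entries (at least 1 FPKM in either genotype and above 0 in both) lay above 0. The median log2 fold change of the 10 genes was -0.13, and that of the expressed entries was -0.02. All 10 estimates were small: they ran from -0.33 to 0.34, and none exceeded 1.23 times its own SE. Their precision was also limited. The 95% interval lay within a 2-fold change in either direction for all 10 genes, and within a 1.5-fold change for 0 of them.

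**Figure D2:**
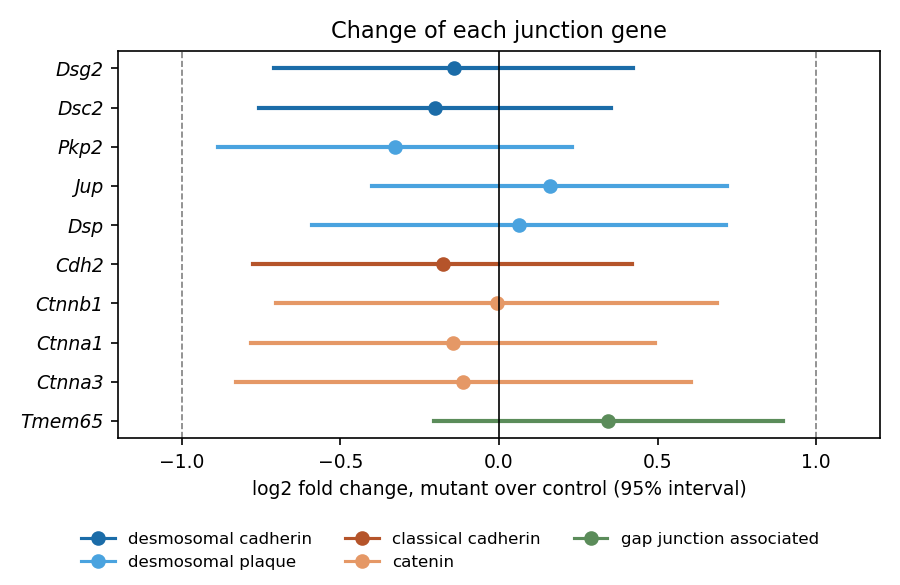
Log2 fold change (mutant over control) of each junction gene with its 95% interval from the SE implied by the deposited test statistic. Colours give the role and dashed lines mark a 2-fold change. Every interval crosses 0 and stays inside the dashed lines, from -0.89 for the lower end of Pkp2 to 0.89 for the upper end of Tmem65.

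The desmosomal cadherins were both slightly below 0. Dsg2, the main desmoglein of heart muscle, read 9.58 FPKM in mutant and 10.6 FPKM in control hearts. Its log2 fold change in the authors' deposited table was -0.14 (SE 0.289, 95% interval -0.71 to 0.42, p = 0.621, q = 1.00). Dsc2, the desmocollin of heart muscle, read 11.3 FPKM in mutant and 13.0 FPKM in control hearts. The authors' deposited table gave it a log2 fold change of -0.20 (SE 0.283, 95% interval -0.76 to 0.35, p = 0.476, q = 1.00). Dsc2 was therefore 1.15-fold lower, well inside its error. The ratio of Dsc2 to Dsg2 levels was 1.18 in mutant and 1.23 in control hearts.

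Both genes sit in the desmosomal cadherin cluster on chromosome 18 (mm10), where Dsc2 spans 20030798 to 20059505 and Dsg2 spans 20558116 to 20604526. The cluster holds 9 genes over 644 kb in the table. The 7 others encode the desmocollins and desmogleins of skin and other stratified epithelia, and all were too low for the authors' test. The highest of the 7, Dsc3, was listed at 0.0648 FPKM in mutant and 0.0506 FPKM in control hearts, and Dsc1 and Dsg1b were listed at 0 in mutant hearts. Of the cluster, only Dsc2 and Dsg2 had levels above 1 FPKM, in mutant and in control hearts.

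None of the 3 plaque genes was called, where 0.422% of all tested entries were. Pkp2, the plakophilin of heart muscle, had the lowest fold change of the 10 genes, with 39.7 FPKM in mutant and 49.8 FPKM in control hearts. Its log2 fold change in the authors' deposited table was -0.33 (SE 0.284, 95% interval -0.89 to 0.23, p = 0.248, q = 1.00), so the interval runs from 1.85-fold lower to 1.17-fold higher. Of expressed entries, 5.97% had a lower fold change than Pkp2. Pkp2 spans chromosome 16 from 16213345 to 16272712.

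Jup, or plakoglobin, is the armadillo protein found in both desmosomes and adherens junctions. It read 27.5 FPKM in mutant and 24.6 FPKM in control hearts, and the authors' deposited table gave a log2 fold change of 0.16 (SE 0.285, 95% interval -0.40 to 0.72, p = 0.576, q = 1.00). Its entry lies on chromosome 11 from 100368856 to 100397790. Dsp, desmoplakin, read 46.9 FPKM in mutant and 44.9 FPKM in control hearts. Its log2 fold change in the authors' deposited table was 0.06 (SE 0.333, 95% interval -0.59 to 0.72, p = 0.850, q = 1.00). Dsp spans chromosome 13 from 38151294 to 38198577.

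Within the plaque, the level of Pkp2 was 1.44 times that of Jup in mutant and 2.02 times in control hearts. Relative to Dsp it was 0.846 times in mutant and 1.11 times in control hearts. The difference between the log2 fold changes of Pkp2 and Jup was -0.49 with a 95% interval of -1.28 to 0.30, and that between Pkp2 and Dsp was -0.39 with an interval of -1.25 to 0.47. Both intervals cover 0. They take the errors of the genes as independent, although the genes were measured in the same hearts. Summed over the 3 plaque genes, the level was 114 FPKM in mutant and 119 FPKM in control hearts.

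Cdh2 and the 3 catenins described next lay below 0, while Jup, which also binds N-cadherin, lay above it, and Ctnnb1 lay so near 0 that centring on the median of expressed entries turned its sign. Cdh2, N-cadherin, is the classical cadherin of heart muscle and spans chromosome 18 from 16588877 to 16809049. It read 57.3 FPKM in mutant and 64.8 FPKM in control hearts, and the authors' deposited table gave a log2 fold change of -0.18 (SE 0.305, 95% interval -0.78 to 0.42, p = 0.559, q = 1.00). Among 8 classical cadherins Cdh2 made up 42.3% of the summed FPKM in mutant and 44.3% in control hearts, followed by the endothelial cadherin Cdh5 with 24.5% in mutant and 27.1% in control hearts. The level of Ctnnb1 was 3.72 times that of Cdh2 in mutant and 3.30 times in control hearts.

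Ctnnb1, beta-catenin, joins cadherins to alpha-catenin and is also the nuclear effector of Wnt signals. Of the 10 genes it was the closest to equal in both genotypes, with a log2 fold change of -0.01 in the authors' deposited table (SE 0.355, 95% interval -0.70 to 0.69, p = 0.982, q = 1.00). After centring, this value was 0.00917. Its SE was larger than that of 8 other members, so a change of up to 1.63-fold lower or 1.61-fold higher lies within the interval. Ctnnb1 spans chromosome 9 from 120933400 to 120960507. Jup, its close relative, made up 11.5% of their summed level in mutant and 10.3% in control hearts. The log2 fold changes of Jup and Ctnnb1 differed by 0.17 (95% interval -0.73 to 1.06 with independent errors).

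Ctnna1, the alpha-catenin of most tissues, read 111 FPKM in mutant and 122 FPKM in control hearts. Its log2 fold change in the authors' deposited table was -0.14 (SE 0.325, 95% interval -0.78 to 0.49, p = 0.656, q = 1.00). Ctnna3, alphaT-catenin, binds Pkp2 and so ties the adherens junction to the desmosome in the area composita. The authors' deposited table gave it a log2 fold change of -0.11 (SE 0.366, 95% interval -0.83 to 0.60, p = 0.757, q = 1.00), the widest interval of the 10 genes. Ctnna3 made up 2.46% of the summed level of Ctnna1 and Ctnna3 in mutant and 2.40% in control hearts, so Ctnna1 made up nearly all of that sum. A further alpha-catenin gene, Ctnna2, was not in the sum and read 0.337 FPKM in mutant and 0.297 FPKM in control hearts. In bulk hearts these levels cover all cell types.

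The deposited entry of Ctnna1 covers chromosome 18 from 35118912 to 35254775 and that of Ctnna3 covers chromosome 10 from 63430098 to 65003667. Each shares its interval with another entry, Lrrtm2 for Ctnna1 and Lrrtm3 for Ctnna3, and reads of overlapping genes may be shared in the authors' counting. Both neighbours were too low for a test. Lrrtm2 was listed at 0.00683 FPKM in mutant and 0.00559 FPKM in control hearts, and Lrrtm3 at 0.0318 FPKM in mutant and 0.0250 FPKM in control hearts. None of the other 8 genes shared its interval with another entry.

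Tmem65, a membrane protein of the disc, is known in the mouse to bind connexin 43 and to be needed for its place at the disc. It had the highest fold change of the 10 genes, with 23.4 FPKM in mutant and 18.4 FPKM in control hearts. Its log2 fold change in the authors' deposited table was 0.34 (SE 0.281, 95% interval -0.21 to 0.89, p = 0.220, q = 1.00). Of expressed entries, 4.85% had a higher fold change, and Tmem65 was the 1 member outside the central 90% of expressed entries (log2 -0.36 to 0.34). For 10 genes, 1 outside is no more than the share that this range leaves out by definition. Gja1, the connexin 43 gene, read 47.8 FPKM in mutant and 55.6 FPKM in control hearts (log2 -0.22 in the authors' deposited table). The log2 fold changes of Tmem65 and Gja1 differed by 0.56, with a 95% interval of -0.22 to 1.35 that covers 0. Tmem65 spans chromosome 15 from 58782269 to 58823427.

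**Figure D3:**
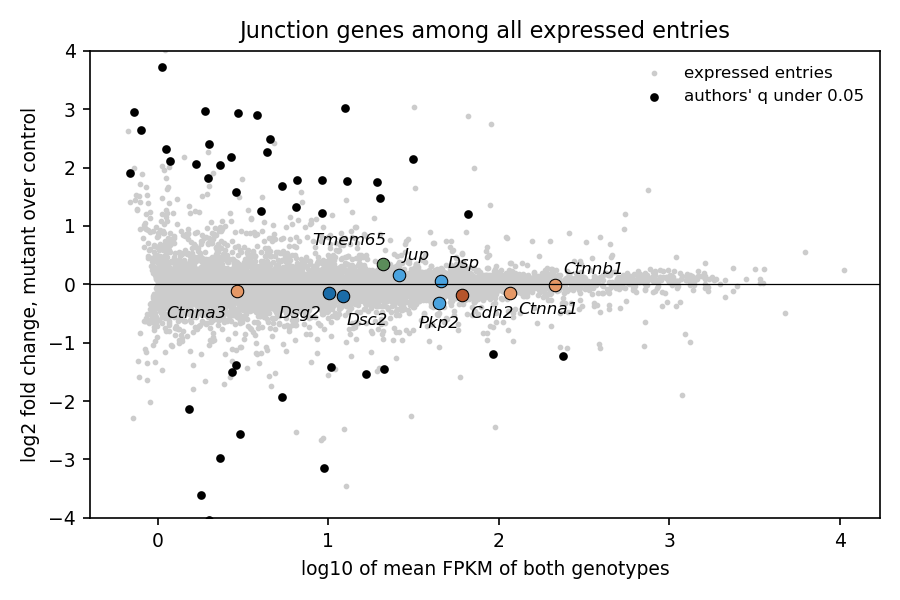
Log2 fold change (mutant over control) against the log10 of mean FPKM for the 12150 expressed entries in grey, with called entries in black and the 10 junction genes in the colours of their roles. The vertical axis stops at 4 in either direction, which leaves out 9 entries. The junction genes lie in the dense band around 0, between -0.33 and 0.34, with none among the called entries.

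Other genes of the same structures were read beside these. Over all tested entries only 0.422% were called, so 0 calls in a list as short as those below says little about its genes. In a list of 24 further intercalated disc genes, 23 were tested and 0 were called, with no unadjusted p under 0.05. Their median log2 fold change was -0.10, with 3 above 0 and 20 below. The lowest was -0.64 and the highest 0.06. Des, the desmin to which desmoplakin ties the desmosome, read 420 FPKM in mutant and 465 FPKM in control hearts (log2 -0.15 in the authors' deposited table). Csrp3, a muscle LIM protein, read 620 FPKM in mutant and 633 FPKM in control hearts, and the Z-disc gene Ldb3 read 89.3 FPKM in mutant and 91.1 FPKM in control hearts.

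In the list of 20 other adherens junction genes all were tested, 1 was called higher and 0 lower. Over all tested entries 0.305% were called higher and 0.117% lower. An unadjusted p under 0.05 was reached by 2 of the 20 genes, both higher. The called gene was Cdh1, E-cadherin of epithelia, which rose to 1.91 FPKM in mutant hearts, against 0.440 FPKM in control hearts. The authors' deposited table gave it a log2 fold change of 2.12 with an SE of 0.541 and q = 0.0261. The other was Cdh6, a classical cadherin, at 2.69 FPKM in mutant and 0.942 FPKM in control hearts (log2 1.51, p = 0.000864, q = 0.136 in the authors' deposited table). The list median was 0.05, with 10 genes above 0 and 10 below. Ctnnd1, the p120 catenin that holds cadherins at the membrane, read 54.1 FPKM in mutant and 58.0 FPKM in control hearts. Nectin2 read 55.5 FPKM in mutant and 56.1 FPKM in control hearts, and the actin linker Vcl, which also belongs to the disc list, read 44.9 FPKM in mutant and 46.2 FPKM in control hearts. Cdh5 read 33.1 FPKM in mutant and 39.6 FPKM in control hearts.

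Of 12 other desmosome and plaque genes, 8 were too low for a test, 4 were tested and 0 were called (0.422% over all tested entries). An unadjusted p under 0.05 was reached by 2 of them, in opposite directions. Perp, a membrane protein of desmosomes and a p53 target, read 14.5 FPKM in mutant and 27.6 FPKM in control hearts (log2 -0.93, SE 0.295, 95% interval -1.51 to -0.35, p = 0.00160, q = 0.196 in the authors' deposited table). Pkp3, a plakophilin of epithelia, read 0.378 FPKM in mutant and 0.127 FPKM in control hearts (log2 1.58, p = 0.0205, q = 0.981 in the authors' deposited table). The cytolinkers Ppl and Evpl read 0.712 and 0.328 FPKM in mutant hearts, against 0.785 and 0.249 FPKM in control hearts. Perp is the 1 gene of this list above 1 FPKM.

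Beta-catenin also acts outside the junction, under the control of its destruction complex. None of 18 genes of that complex and of the nuclear partners of beta-catenin was called, where 0.422% of all tested entries were. The smallest unadjusted p in the list was 0.392. Their median log2 fold change was -0.01, from -0.29 to 0.37. The kinase gene Csnk1a1 read 121 FPKM in mutant and 110 FPKM in control hearts, and Gsk3a read 43.5 FPKM in mutant and 44.6 FPKM in control hearts. The nuclear cofactor Pygo2 read 25.7 FPKM in mutant and 25.6 FPKM in control hearts, and Lzic read 16.4 FPKM in mutant and 18.3 FPKM in control hearts.

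Because junction genes are shared by muscle, epicardium, endothelium and epithelia, markers of those cells are given beside them. In bulk tissue, fewer cells of a type and less RNA per cell cannot be told apart. Of the 16 cardiomyocyte markers 0 were called (0.422% over all tested entries), 13 lay below 0 and the median log2 fold change was -0.26. Myl4 read 3564 FPKM in mutant and 3522 FPKM in control hearts, and Myl3 read 1973 FPKM in mutant and 2285 FPKM in control hearts. Their summed level was 19429 FPKM in mutant and 17670 FPKM in control hearts, a sum in which Myl7 weighs most. All 12 endothelial and endocardial markers lay below 0 with 0 called and a median of -0.17, and their summed level was 422 FPKM in mutant and 472 FPKM in control hearts. The 10 epicardial and mesothelial markers had 0 calls and a median of -0.10. Of these, 8 lay below 0, and 1 reached an unadjusted p under 0.05, Msln (log2 -1.48, p = 0.0123 in the authors' deposited table). The epicardial list had summed levels of 211 FPKM in mutant and 217 FPKM in control hearts.

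Epithelial markers had the highest median of these lists, with a log2 fold change of 2.23, or 0.88 with a pseudocount of 1 FPKM. All 16 embryonic epithelial markers lay above 0, of which 8 were called higher and 0 lower (0.305% of tested entries were called higher). The list was chosen with earlier results of these data known, so its calls are a description and not an independent test. The called genes were Cdh1, Epcam, Cldn6, Esrp1, Grhl2, Krt8, Foxa1 and Shh. Apart from Krt8, the highest level among them was 7.27 FPKM, of Cldn6 in mutant hearts. Krt8, a keratin that epicardium expresses as well, rose to 91.5 FPKM in mutant hearts, against 39.7 FPKM in control hearts (log2 1.21, q = 0.0169 in the authors' deposited table). The summed level of the 16 markers was 232 FPKM in mutant and 125 FPKM in control hearts, a sum in which Krt8, Krt18 and Krt19 weigh most. Krt18 read 65.2 FPKM in mutant and 39.0 FPKM in control hearts, and Krt19 read 49.9 FPKM in mutant and 41.1 FPKM in control hearts. Neither Krt18 nor Krt19 was called. The part of epithelial RNA in the levels of the 10 junction genes was not tested.

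The remaining marker lists held 0 calls, where 0.422% of all tested entries were called. Cushion and pharyngeal mesenchyme markers had a median log2 fold change of 0.19 over 12 tested genes, with 4 at an unadjusted p under 0.05, all higher. Those 4, Prrx1, Dlx5, Dlx2 and Tfap2a, were low, with Prrx1 the highest at 3.25 FPKM in mutant and 1.54 FPKM in control hearts. Of the 12 genes, 10 lay above 0 and 2 below. The lowest, Postn, read 16.2 FPKM in mutant and 24.5 FPKM in control hearts (log2 -0.60, p = 0.0728 in the authors' deposited table). Neural markers had a median of 0.34 over 9 tested genes, with 2 at an unadjusted p under 0.05, both higher, and a summed level of 29.6 FPKM in mutant and 22.7 FPKM in control hearts. Erythroid markers had a median of 0.12 over 5 tested genes, with 0 at an unadjusted p under 0.05. The other 5 erythroid genes could not be read. The globin genes among them held too many fragments for a test, and another gene had no entry. The parts of these cell types in the junction gene levels were not tested.

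**Figure D4:**
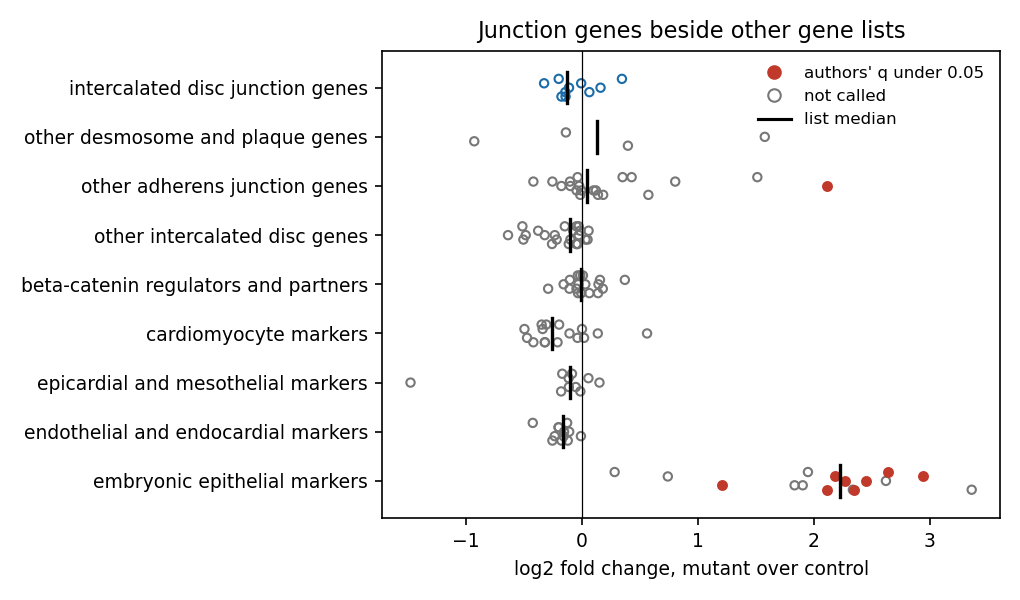
Log2 fold change (mutant over control) of each tested gene in the junction gene set, in 4 further junction and beta-catenin lists and in 4 marker lists, with red points for genes called at the authors' q under 0.05, open points for the rest and a bar at each median. The 10 junction genes lie between -0.33 and 0.34 around a median of -0.13, while the epithelial markers lie around 2.23 with 8 red points.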

How the data were processed

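RNA was measured in 3 mutant and 3 control hearts, grouped by their labels. The submitters' processing notes name TopHat2 2.0.8, Bowtie2 2.1.0.0, Cufflinks 2.1.1, Cuffdiff and the mm10 build. Per the file headers, the authors' values are FPKM, 1 for each gene and genotype, with replicates pooled. The authors also deposited a p-value and a q-value for each entry. The normalisation of libraries and the dispersion model are not given in the sources used here. An FPKM holds no count, so depth is unknown.

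The log2 fold change was deposited by the authors as mutant over control, and the test statistic has the opposite sign. For 15301 tested entries above 0 in both genotypes, the deposited p equalled the two-sided normal p of the statistic (largest gap 2.82e-06), which grounds the SE used here. A Benjamini-Hochberg adjustment of p over the 15387 tested entries gave the deposited q (largest gap 1.87e-05). Entries with another status were left out of tests: 7742 were too low, 96 had failed and 65 held too many fragments. The code for the SE and the Benjamini-Hochberg adjustment was run on simulated normal data. The simulated statistic was built from the SE, so this run checks the code and not the authors' statistic. No pseudocount was used.

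RefSeq identifiers were named from the RefSeq gene table of GRCm38.p6 and GENCODE, covering 99.3% of entries. Starts were moved to counting from 1, and an entry's interval is the one the authors' table gives. Members and lists were chosen with earlier results of these data known. Named genes were the 10 members, Casz1, Nkx2-5, the called genes of each other list and its members of highest mean FPKM (up to 4 in junction lists and 3 in marker lists), of which some are given only through their list. Genes named outside that rule (Dsc3, Dsc1, Dsg1b, Cdh6, Ctnna2, Msln, Prrx1, Dlx5, Dlx2, Tfap2a, Postn, Lrrtm2 and Lrrtm3) were chosen after their values were seen. The alternatives were the q threshold, the entries adjusted over, a minimum fold, pseudocounts, centring and a filter on low FPKM. Python 3.11.15, numpy 2.4.6, pandas 2.3.3, scipy 1.17.1 and matplotlib 3.10.9 were used.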

Additional observations from a re-analysis of the deposited data

How the results depend on the processing

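The count of called members was 0 at q under 0.01, at q under 0.10, with the adjustment over entries with at least 1 FPKM in either genotype, and with a 1.5-fold minimum. Of 30 member fold changes recomputed with pseudocounts of 0.1 and 1 FPKM or centred on the median of expressed entries, 29 kept their sign, and the largest shift was 0.03. The exception was Ctnnb1, at 0.00917 when centred, since the median of expressed entries is -0.02. No member has several entries, so summing entries was not run. At q under 0.01 the other adherens junction genes held 0 calls in place of 1. With a pseudocount of 1 FPKM the medians of the other desmosome genes, the epithelial markers and the neural markers were 0.0141, 0.88 and 0.18. The epithelial median was 1.77 with a pseudocount of 0.1 FPKM. Over genes with at least 1 FPKM it was 2.12, and that of the other desmosome genes was -0.93, which is Perp alone. Leaving out a heart was not possible because the table pools them. No paired analysis was possible because the table has no columns per sample. With SEs from 0.281 to 0.366, small changes of the members lie below detection, and the smallest called change among all entries was 2.29-fold.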

Other observations

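Chromosome 18 carries 4 of the 10 junction genes, Dsc2, Dsg2, Cdh2 and Ctnna1, while 2.53% of expressed entries lie there. Their log2 fold changes in the authors' deposited table ran from -0.20 to -0.14. Their SEs, from 0.283 to 0.325, are each larger than the width of that range. The range held 5.86% of the 307 expressed entries on chromosome 18 and 6.49% of all expressed entries. Because the 4 genes themselves set the range, these shares do not test whether the genes moved together. The median over the chromosome was -0.01, and 0 entries on it were called, where 0.422% of all tested entries were.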
